A study of Mus musculus with 9 samples.

Results

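A set of 6 zinc-handling genes was followed in sorted mouse haematopoietic stem cells (HSCs): the metallothioneins Mt1 and Mt2, the zinc sensor Mtf1, and the zinc transporters Slc30a1, Slc39a10 and Slc39a14. They are 6 of 19454 genes listed, were picked by symbol with earlier results of these data known, and all 6 were among the 14461 genes with enough counts to be tested. The series measured polyadenylated RNA in 9 libraries of 1500 sorted marrow cells each, amplified with 12 PCR cycles. The animals were labelled wild type in every group, and the series' title ties the work to psychological stress, HSC ageing and spermidine. The control group (3 libraries) carries no intervention in its labels. The inhibition group (3 libraries) had the mPFC and PAG, brain regions commonly spelled out as medial prefrontal cortex and periaqueductal grey, silenced chemogenetically, a method in which neurons made to carry a designer receptor are quieted by its drug. Library names of this group carry AAV, a viral vector commonly used for that purpose. The spermidine group (3 libraries) had the same silencing with a supplement of spermidine, a natural polyamine. The labels give no age, sex, sort markers, source animal, drug or dose, and no vector or drug for the controls, so silencing cannot be told apart from the virus or the drug, and p-values measure only the spread between these libraries, which may be technical.

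Metallothioneins are very small proteins rich in cysteine that hold zinc and copper in clusters of sulphur atoms, and they buffer free zinc in the cell. Mtf1 encodes MTF-1, a zinc finger protein that senses zinc, enters the nucleus and binds short DNA stretches called metal response elements, which switches on Mt1, Mt2 and the exporter gene Slc30a1. Members of the SLC30 family move zinc out of the cytosol, while members of the SLC39 family bring it in. Metallothionein genes also respond to glucocorticoids, inflammatory cytokines and oxidants, and developing blood cells rely on many zinc-binding proteins.

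The libraries of the 3 groups differed widely beyond these 6 genes. HSC markers summed to 201 to 203 CPM (counts scaled to library size with TMM factors) in control, 249 to 260 in inhibition and 323 to 330 in spermidine libraries, and 3 of the 10 (Procr, Fgd5 and Hoxb5) averaged under 1 CPM in control. The 13 neutrophil markers took 0.482 to 0.497% of all counts in control, 5.61 to 5.72% in inhibition and 2.36 to 2.45% in spermidine libraries, with Ly6g and Mmp9 under 1 CPM in control alone. The 7 megakaryocyte markers summed to 2952 to 2976 CPM in control, 142 to 151 in inhibition and 142 to 148 in spermidine libraries. The 9 B and plasma cell markers summed to 84.9 to 86.1 CPM, 4611 to 5026 and 1745 to 1887, with Cd79a, Ms4a1, Jchain and Mzb1 under 1 CPM in control. The 10 erythroid markers measured summed to 3411 to 3469 CPM in control, 1412 to 1443 in inhibition and 1241 to 1294 in spermidine libraries. Within them Klf1 averaged 69.4, 4.50 and 1.72 CPM and Car1 1597, 29.7 and 26.03 CPM, while Hba-a2 averaged 47.9, 327.0 and 142.8 CPM. Control differed from both silenced groups in each of these sums. In CPM the silenced groups differed from each other in all but the megakaryocyte sum. As a share of all counts that sum differed too, at 0.01339 to 0.01436% in inhibition and 0.01591 to 0.01685% in spermidine libraries. On that scale the erythroid sum was higher in spermidine than in inhibition libraries. The part of these cells in the results that follow was not tested. In bulk RNA of this kind, fewer cells of a type and less RNA per cell cannot be told apart. By edgeR's quasi-likelihood test with Benjamini-Hochberg adjustment over all tested genes, 72.4% of genes were called at an adjusted p under 0.05 in inhibition against control, 58.1% in spermidine against inhibition and 78.1% in spermidine against control.

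Mt1 and Mt2 stand side by side on mouse chromosome 8 (mm10), on the same strand and 5513 bases apart. Mt2 (ENSMUSG00000031762) spans chr8:94172664-94173568 and Mt1 (ENSMUSG00000031765) spans chr8:94179082-94180327. Their coding sequences, shown to let a reader see how alike the pair is, are each 186 bases with the stop codon in the GENCODE transcripts, and capitals mark the bases at which they differ.
Mt1 coding sequence: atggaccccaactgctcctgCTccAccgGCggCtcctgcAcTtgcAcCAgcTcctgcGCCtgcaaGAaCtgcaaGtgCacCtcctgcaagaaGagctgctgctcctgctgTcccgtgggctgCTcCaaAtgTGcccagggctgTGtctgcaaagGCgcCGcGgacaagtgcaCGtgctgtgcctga
Mt2 coding sequence: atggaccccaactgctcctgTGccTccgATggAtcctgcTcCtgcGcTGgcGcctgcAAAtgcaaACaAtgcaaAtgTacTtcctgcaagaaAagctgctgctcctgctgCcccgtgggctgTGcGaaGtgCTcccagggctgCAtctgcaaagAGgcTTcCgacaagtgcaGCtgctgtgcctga
The sequences differ at 38 positions and are identical at 79.6%. Each carries 20 cysteine codons (TGC or TGT) among 61. The longest run that the full transcripts share is 20 bases, shorter than the paired reads named in the labels, and the deposited estimated counts of Mt1 and Mt2 were whole numbers in all 9 libraries.

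The stretches upstream of the metallothionein genes and of Slc30a1 are shown because MTF-1 is known to act on all 3. Each run is the 250 bases before the RefSeq start of the gene (GRCm38.p6, plus strand), and capitals mark metal response element letters, searched as TGCACNC and TGCGCNC on both strands.
Mt1 chr8:94178839-94179088: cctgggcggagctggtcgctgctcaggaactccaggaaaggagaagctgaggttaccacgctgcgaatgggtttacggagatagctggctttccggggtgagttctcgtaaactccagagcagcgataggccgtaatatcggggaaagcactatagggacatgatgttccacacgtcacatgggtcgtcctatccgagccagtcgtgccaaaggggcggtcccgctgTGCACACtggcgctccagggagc
Mt2 chr8:94172368-94172617: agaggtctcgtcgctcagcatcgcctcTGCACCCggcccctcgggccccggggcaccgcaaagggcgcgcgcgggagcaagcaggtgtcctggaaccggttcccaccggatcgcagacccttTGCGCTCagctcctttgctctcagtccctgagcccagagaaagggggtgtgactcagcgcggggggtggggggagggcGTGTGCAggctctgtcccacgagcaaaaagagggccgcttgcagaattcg
Slc30a1 chr1:191906531-191906780: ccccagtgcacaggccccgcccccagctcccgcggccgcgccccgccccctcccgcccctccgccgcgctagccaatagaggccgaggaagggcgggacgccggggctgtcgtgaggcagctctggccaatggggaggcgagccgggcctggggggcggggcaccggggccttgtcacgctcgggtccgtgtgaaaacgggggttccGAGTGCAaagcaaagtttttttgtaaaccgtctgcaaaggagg
Mt1 has 1 match in this window, Mt2 has 3 and Slc30a1 has 1, and no matches overlap one another. Of 32851 promoter windows of this length, 21.4% hold at least 1 match and 1.26% hold at least 3. The windows of Mtf1 and the 2 windows of Slc39a10 hold none of these letters. In the annotated first exons of Mt1 and Mt2 a TATAAA begins at position -101 and -95, counted from the start codon, and upstream of it in the same exon are 4 further matches in Mt1 and 3 in Mt2. The stretch with the first pair of these matches is given for each gene, since the windows above end before these matches.
Mt1 chr8:94179086-94179115: agctcTGCACTCcgcccgaaaagTGCGCTC
Mt2 chr8:94172672-94172701: gggcGTGTGCAggcggcgggggcGCGTGCA
These matches describe the letters only, and binding was not measured.

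Mt1 was the most abundant of the 6 genes in every library, and its level was stepwise lower from control to inhibition to spermidine libraries. In TPM (a relative abundance that adjusts for depth and transcript length) it stood at 1292, 1312 and 1205 in control, 1089, 1130 and 1136 in inhibition, and 688, 701 and 709 in spermidine libraries. No library of any group overlapped another group. The TPM means were 1270 ± 56.9, 1118 ± 25.6 and 699.6 ± 10.6 (SD, n = 3 each), which placed Mt1 at rank 142, 152 and 249 of the 19454 genes. In CPM the groups averaged 681.7 ± 5.08, 534.8 ± 19.6 and 275.5 ± 5.86. The edgeR log2 fold change was -0.35 (SE 0.030) for inhibition against control, -0.96 (SE 0.031) for spermidine against inhibition and -1.31 (SE 0.031) for spermidine against control. The larger of the successive steps, 1.94-fold, was therefore the one between the groups that differ by spermidine. On the TPM scale the same steps were smaller, at -0.18 and -0.68 for the log2 ratio of group means.

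Mt2 fell far more steeply than Mt1 in the inhibition group, with a smaller step between the silenced groups. Its TPM was 135.9, 133.3 and 144.2 in control libraries, 18.3, 17.8 and 18.0 in inhibition libraries, and 14.3, 14.6 and 16.6 in spermidine libraries. The control libraries lay far above all others, and the inhibition and spermidine libraries did not overlap either. The counts behind these values were 1039, 1118 and 1243 in control, 119, 187 and 151 in inhibition, and 117, 125 and 99 in spermidine libraries. Means in TPM were 137.8 ± 5.71, 18.0 ± 0.251 and 15.2 ± 1.24 (SD, n = 3 each), at rank 841, 2943 and 3449. The log2 fold change was -3.04 (SE 0.061) for inhibition against control, an 8.24-fold lower level. It was -0.60 (SE 0.086) for spermidine against inhibition and -3.64 (SE 0.064) for spermidine against control. Among all tested genes, 1.29% were called and at least 8-fold lower in inhibition against control, and 177 had a more negative fold change than Mt2. Spermidine against inhibition was smaller in TPM, at a log2 ratio of -0.25.

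**Figure D1:**
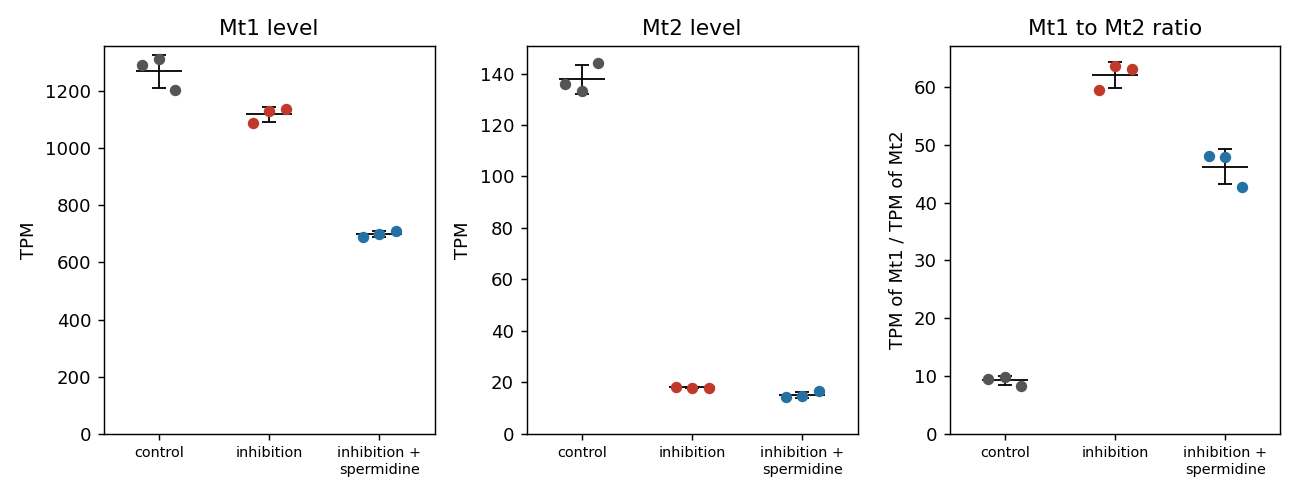
Level of Mt1 (left) and Mt2 (middle) in TPM and the ratio of the TPM of Mt1 to that of Mt2 (right) in each of the 9 libraries; points are libraries, horizontal lines are group means and bars are SD (n = 3). Mt2 drops from above 133 TPM in control to below 19 in both other groups, while Mt1 goes from 1270 to 1118 to 700 TPM on average.

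Because the pair changed by different amounts, its balance shifted. The TPM of Mt1 was 9.50, 9.84 and 8.36 times that of Mt2 in control libraries, 59.6, 63.6 and 63.2 times in inhibition libraries, and 48.1, 48.0 and 42.7 times in spermidine libraries. The 3 groups did not overlap, and the inhibition group had the most lopsided ratio. This ratio is taken within a library, so it does not depend on how libraries are scaled to each other. Group means of the log2 ratio were 3.20 ± 0.12, 5.96 ± 0.052 and 5.53 ± 0.097 (SD, n = 3 each). Mt2 made up 9.81 ± 0.775% of the summed TPM of the pair in control, 1.59 ± 0.056% in inhibition and 2.12 ± 0.143% in spermidine libraries. The summed TPM, carried mostly by Mt1, was 1407 ± 51.2, 1136 ± 25.6 and 714.8 ± 11.7. The pair was singled out for this difference, so the ratio is given without a test. Mt3, the metallothionein best known from neurons, averaged 0 CPM in control, 0.064 in inhibition and 0.085 in spermidine libraries, under the 0.118 to 0.186 CPM that a count of 0 allows (3 counts per library, counting error only).

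Both metallothioneins kept their direction and their call in each of the alternative analyses, 102 of 102 fits over the 3 comparisons. Leaving out markers of other cell types and immunoglobulin genes before scaling gave -0.35 for Mt1 and -3.04 for Mt2 in inhibition against control. The same step gave -0.96 and -0.60 in spermidine against inhibition. It removes those genes from the scaling, not the RNA that such cells may add to Mt1 or Mt2. In CPM the erythroid marker sum was lower in the same group order as Mt1 and Mt2, and the megakaryocyte sum was lower in both silenced groups than in control. As a share of all counts the erythroid sum was 0.133 to 0.135% in inhibition and higher, 0.139 to 0.146%, in spermidine libraries. Its 10 members were split in inhibition against control, 5 called higher and 5 lower, beside 72.4% of all genes called. The part of erythroid or megakaryocyte RNA in the falls of Mt1 and Mt2 was not tested.

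Mtf1 (ENSMUSG00000028890, chr4:124802104-124849800, plus strand), whose product drives Mt1 and Mt2, was higher in both silenced groups than in control. It stood at 9.71, 10.9 and 12.3 CPM in control, 16.04, 15.1 and 15.0 in inhibition, and 14.9, 14.7 and 13.6 in spermidine libraries. Each control library lay below all 6 others. The log2 fold change was 0.48 (SE 0.083) for inhibition against control and 0.39 (SE 0.083) for spermidine against control. Spermidine against inhibition was -0.09 (SE 0.077) and not called, although the CPM values just missed overlapping (14.95 against 14.91), and it was 0.17 under scaling by total count. Mtf1 and Mt2 thus came to similar levels per length in the spermidine group, at 15.0 ± 0.820 and 15.2 ± 1.24 TPM with overlapping libraries, whereas in control Mtf1 was at 8.12 ± 1.17 TPM against 137.8 for Mt2. Mtf1 overlaps 1110065P20Rik on the other strand, which averaged 13.9, 7.43 and 7.56 CPM in the 3 groups. The labels state no strand-specific step, so reads of these genes cannot be told apart where they overlap. In the annotation Mt2 also overlaps the antisense gene Gm45774 and Slc30a1 overlaps 1700034H15Rik, neither of which was analysed here.

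Slc30a1 (ENSMUSG00000037434, chr1:191906767-191913247, plus strand) encodes ZnT1, the zinc exporter of the cell surface and a classical target of MTF-1. It was scarce, at 21 to 65 counts per library. Its CPM was 1.27, 1.88 and 2.22 in control, 1.91, 1.45 and 2.00 in inhibition, and 2.62, 2.54 and 2.33 in spermidine libraries. Control and inhibition libraries overlapped, and the spermidine libraries lay above all 6. The log2 fold change was -0.04 (SE 0.22) for inhibition against control, not called, 0.51 (SE 0.20) for spermidine against inhibition and 0.47 (SE 0.20) for spermidine against control. Those 2 calls were fragile. The first was lost without inhibition library 1 (0.52) or 2 (0.35) or spermidine library 1 (0.47) or 2 (0.49), and the second without control library 1 (0.27) or 2 (0.48), inhibition library 1 (0.44) or 3 (0.45) or spermidine library 1 (0.43) or 2 (0.45). DESeq2 called neither (0.46 and 0.45), and the value near 0 turned positive without control library 3 (0.14) or inhibition library 2 (0.10). In TPM inhibition library 2 stood apart at 0.527 against 0.262 and 0.270 for the other inhibition libraries, although its CPM was the lowest of the 3.

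Slc39a10 (ENSMUSG00000025986, chr1:46807544-46892852, minus strand) encodes ZIP10, a zinc importer of the cell surface that MTF-1 is known to repress. It stood at 5.40, 6.65 and 6.40 CPM in control, 11.4, 9.26 and 11.3 in inhibition, and 9.39, 8.69 and 10.2 in spermidine libraries. Control libraries lay below all others, and the silenced groups overlapped each other. The log2 fold change was 0.78 (SE 0.11) for inhibition against control and 0.60 (SE 0.11) for spermidine against control, both called. For spermidine against inhibition it was -0.18 (SE 0.10), not called, became a call without inhibition library 2 (-0.29), and turned to 0.09 under scaling by total count. On the TPM scale the control libraries, at 0.837, 1.55 and 1.06, overlapped the inhibition libraries, at 1.62, 1.25 and 1.52, and limma on log2(TPM + 1) did not call the rise (0.21). The ratio of count to TPM of Slc39a10 spread over 0.57 on the log2 scale among control libraries, against 0.12 for Mt1.

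Slc39a14 (ENSMUSG00000022094, chr14:70303469-70351425, minus strand) encodes ZIP14, an importer of zinc, iron and manganese that is induced in liver by inflammation. It had the fewest counts of the 6 genes, 9 to 52 per library. Its CPM was 0.546, 1.13 and 0.980 in control, 1.35, 0.997 and 1.15 in inhibition, and 1.85, 2.04 and 1.61 in spermidine libraries. The spermidine libraries lay above all others, while control and inhibition overlapped. The log2 fold change was 0.36 (SE 0.28) for inhibition against control, not called, with 0.11 without control library 1, 0.54 without control library 2 and 1.04 in limma on log2(TPM + 0.1). It was 0.68 (SE 0.23) for spermidine against inhibition and 1.04 (SE 0.25) for spermidine against control. The call against inhibition was lost without inhibition library 2 (0.56), without spermidine library 2 (0.59) and with DESeq2 (0.64). In TPM it ranged from 0.069 to 0.751 in control and from 0.504 to 2.06 in spermidine libraries, so that scale did not separate the groups.

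**Figure D2:**
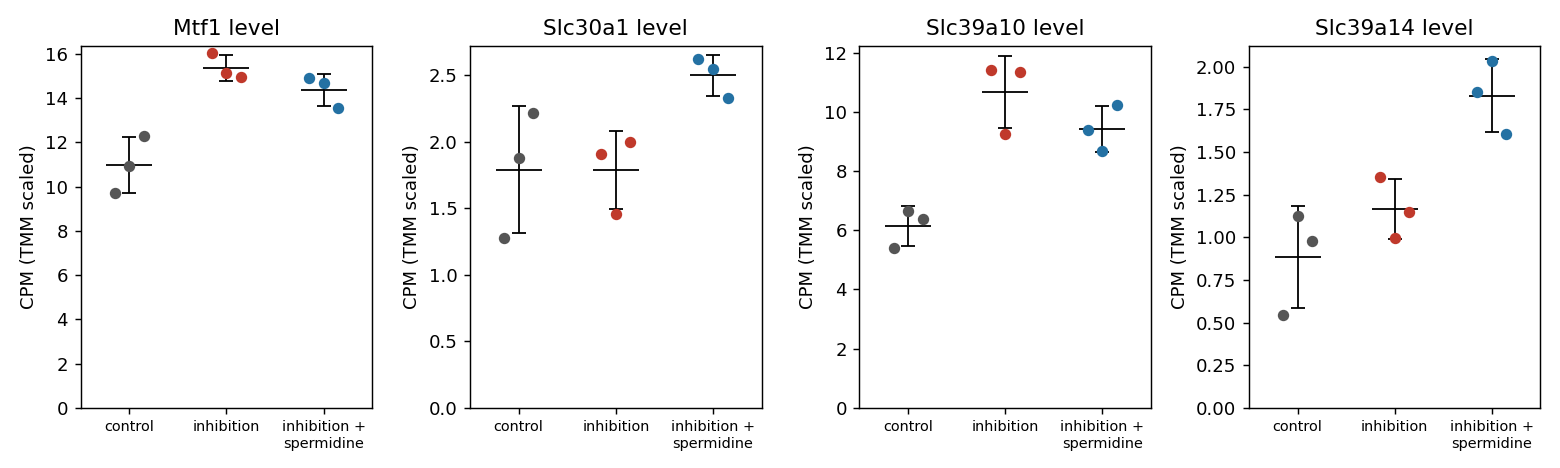
CPM (TMM scaled) of Mtf1, Slc30a1, Slc39a10 and Slc39a14 in each library; points are libraries, horizontal lines are group means and bars are SD (n = 3). Control lies lowest for Mtf1 and Slc39a10, and the spermidine libraries lie highest for Slc30a1 and Slc39a14.

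Per length, the order of the 6 genes in control was Mt1, Mt2, Mtf1, Slc39a10, Slc39a14 and Slc30a1, at mean TPM of 1270, 138, 8.12, 1.15, 0.421 and 0.235. The last 2 overlapped between libraries. The same order held in inhibition, at 1118, 18.0, 13.1, 1.46, 0.790 and 0.353 TPM, with no overlap between neighbours. In spermidine libraries it was 700, 15.2, 15.0, 1.60, 1.34 and 0.422 TPM, where Mt2 overlapped Mtf1 and Slc39a10 overlapped Slc39a14.

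Read across the 6 genes, the metallothioneins were lower and the sensor and transporters were level or higher. In inhibition against control 4 of 6 were called, 2 higher and 2 lower, beside 72.4% of all tested genes, 36.2% higher and 36.1% lower. In spermidine against inhibition 4 of 6 were called, 2 higher and 2 lower, beside 58.1%, 29.1% higher and 28.9% lower. In spermidine against control all 6 were called, 4 higher and 2 lower, beside 78.1%, 41.0% higher and 37.1% lower. Groups did not overlap in CPM for 4, 5 and 6 of the genes in the same order, beside 74.5%, 62.8% and 79.8% of all genes. The comparisons share libraries, and the genes were chosen from these data, so nothing is read from these counts.

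**Figure D3:**
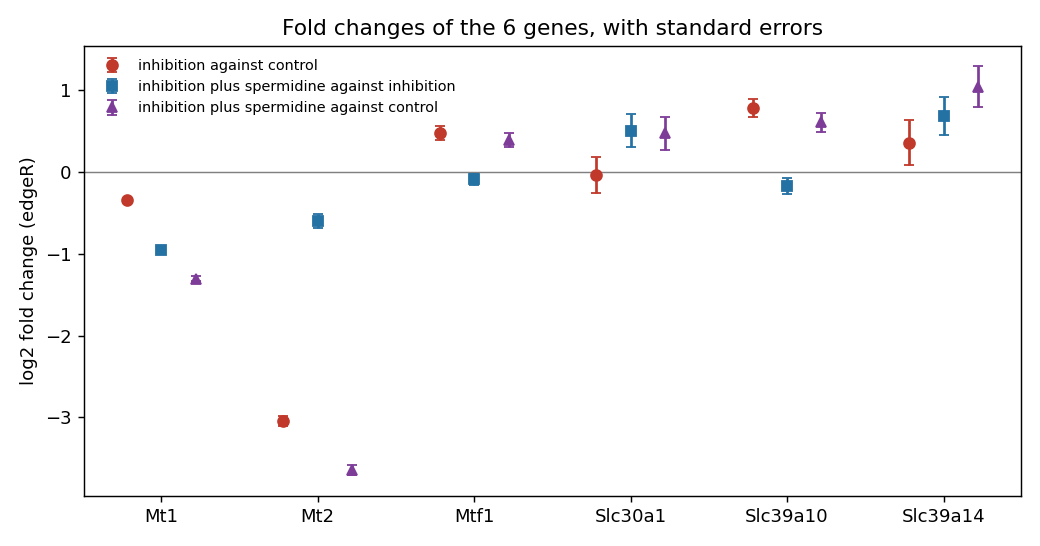
The edgeR log2 fold change of each of the 6 genes in the 3 comparisons, with bars of 1 standard error; 0 means no difference. Mt2 sits at -3.04 in inhibition and -3.64 in spermidine against control, Mt1 reaches -1.31 in spermidine against control, and the other 4 genes lie between -0.18 and 1.04.

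Among the zinc exporters of the SLC30 family, of 10 listed genes 9 were in the table and 6 were tested: in inhibition against control 4 were called higher, none lower and 2 missed the threshold, beside 72.4% of all genes called and 36.2% called higher. Their median log2 fold change was 0.30, beside 0.02 for all tested genes. Slc30a4, which loads zinc into vesicles, went from 0.364 ± 0.056 CPM in control to 5.91 ± 1.08 in inhibition and 5.93 ± 0.713 in spermidine libraries (SD, n = 3), a log2 fold change of 3.98 (SE 0.24) for inhibition against control. Its control level lay under the filter cutoff of 0.489 CPM, so it entered the test only through the groups where it is high and its call supports nothing about the family. Slc30a7, an exporter into the Golgi, rose by 0.82 (SE 0.074, edgeR adjusted p = 2.84e-08), Slc30a6 by 0.37 and Slc30a9 by 0.22. In spermidine against inhibition 1 rose (Slc30a1) and 1 fell (Slc30a6, -0.31), beside 58.1% of all genes called, and under scaling by total count this became 4 higher and 0 lower. In spermidine against control 4 rose and none fell, beside 78.1% of all genes called. The 4 became 2 with DESeq2, with no filter on low counts, and without inhibition library 1, inhibition library 3 or spermidine library 1. Under total count scaling and in either limma fit on TPM the 4 became 6.

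The SLC39 importers were mixed. All 14 were in the table and 11 were tested. In inhibition against control 4 rose, 3 fell and 4 missed the threshold, and their median was 0.17. Of all tested genes 72.4% were called in that comparison, 58.1% in spermidine against inhibition and 78.1% in spermidine against control. Slc39a1, the most abundant zinc transporter in CPM, went from 297.9 to 414.6 to 491.1 CPM, with a log2 fold change of 0.48 (SE 0.030) and then 0.24 (SE 0.030). Slc39a8 rose by 1.03 and Slc39a6 by 0.99, beside Slc39a10, while Slc39a4 fell by 1.38, Slc39a3 by 1.12 and Slc39a7 by 0.48. Slc39a6 overlaps its neighbour Elp2, so reads there may belong to either. In limma on log2(TPM + 0.1) 1 importer fell. In spermidine against inhibition 2 rose (Slc39a1 and Slc39a14), 1 fell (Slc39a11, -0.29, edgeR adjusted p = 0.0495) and 8 did not pass, and under scaling by total count 4 rose and 0 fell. The 2 that rose became 1 with DESeq2 and without inhibition library 2 or spermidine library 2. The call of Slc39a11 was lost without control library 2, inhibition library 3 or spermidine library 1, when 0 importers fell. With DESeq2, either limma fit on TPM or the replicate block 0 importers fell as well. With no filter on low counts, and without inhibition library 1 or 2, 2 fell. In spermidine against control 5 rose and 4 fell, and the 4 became 3 with DESeq2 or total count scaling and 1 in either limma fit on TPM.

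**Figure D4:**
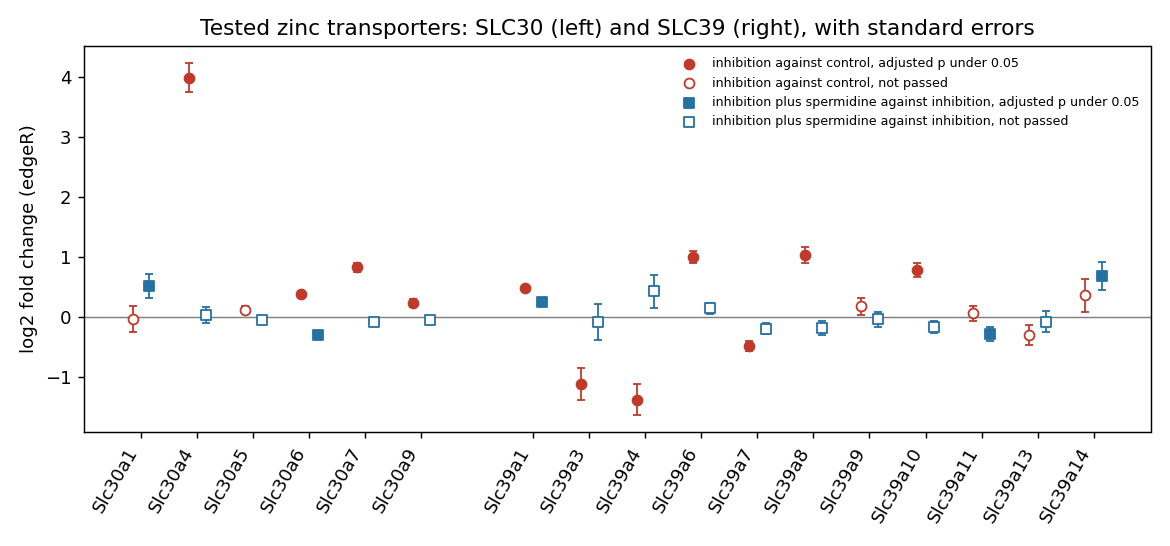
The edgeR log2 fold change of the 17 tested zinc transporters in inhibition against control (circles) and spermidine against inhibition (squares), with bars of 1 standard error; filled symbols passed an adjusted p of 0.05. Slc30a4 stands at 3.98 in inhibition against control, and the spermidine comparison spans -0.31 to 0.68.

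Of 8 genes reported to depend on MTF-1, a list that holds Mt1, Mt2, Slc30a1 and Slc39a10, 2 rose and 4 fell in inhibition against control (median -0.19). Outside the 4 shared genes, Selenoh, a selenoprotein, rose by 0.19, Csrp1, a LIM-domain protein, fell by 0.97, and Ndrg1, a stress-induced gene, fell by 0.40. In spermidine against inhibition 3 rose and 3 fell (median -0.10), or 4 and 2 under total count scaling (median 0.16). With DESeq2 it was 1 and 3 (median -0.13), and in limma on log2(TPM + 1) 2 and 2. With TMM, Ndrg1 was at 0.47, Csrp1 at 0.40 and Selenoh at -0.33. Gclc, which makes the glutathione precursor, was at -0.04 and -0.02 and did not pass in either comparison. Metallothioneins also bind copper, and of 12 copper-handling genes 4 rose and 6 fell in inhibition against control (median -0.05), with the copper transporters Slc31a2 at 1.52 and Atp7a at 1.18 and Atp7b at -1.24. In spermidine against inhibition 3 of the 12 rose and 8 fell (median -0.31), but 4 rose and 4 fell under total count scaling (median -0.05) and 4 rose and 0 fell in limma on log2(TPM + 1). With TMM, Slc31a2 was at -0.82 and Sco2, a copper chaperone of mitochondria, at 0.92. Slc39a14 also carries iron, and of 16 iron-handling genes 8 rose and 6 fell in inhibition against control (median 0.32), then 2 rose and 8 fell with spermidine (median -0.20). That balance turned with scaling, to 7 higher and 4 lower under total count scaling (median 0.06) and 6 higher and 4 lower in limma on log2(TPM + 1). The iron exporter Slc40a1 stood at 1.92 and then -1.56, and the transferrin receptor Tfr2 at -1.99 and then 0.46. Hmox1, among the 8 iron-handling genes that rose, averaged 0.096 CPM in control, under the filter cutoff of 0.489 CPM. It entered the test through the groups where it is high, so its call supports nothing about the list. Of all genes, 72.4% were called in inhibition against control and 58.1% in spermidine against inhibition.

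Genes of other inputs known to act on metallothionein genes were called in both directions. Of 10 tested genes of the glucocorticoid response 2 rose and 4 fell in inhibition against control (median 0.03), then 6 rose and 2 fell with spermidine (median 0.19). Zbtb16 was at -2.72 and then 1.25, Per1 at -1.23 and then 0.59, and Sgk1 at 1.10 and then -0.57. Of 10 genes of the interleukin-6 and STAT3 response 8 rose and 2 fell (median 0.97), then 5 rose and 1 fell (median 0.15). With DESeq2 the counts of this list were 6 and 2, then 1 and 1, so the excess of rises with spermidine was not kept there. With limma on log2(TPM + 1) they were 7 and 2, then 5 and 0. Cebpd was at 2.12, Bcl3 at 1.81 and Stat3 itself at -1.73 in inhibition against control. Of 12 heat shock genes 5 rose and 5 fell (median 0.03), then 2 rose and 5 fell (median -0.28), with Hspb1 at -4.64 and then 1.81. Of 10 genes of the NRF2 oxidant response 5 rose and 4 fell (median 0.18), then 1 rose and 4 fell (median -0.13), with Slc7a11 at 2.13 and then -0.55 and Nqo1 at -1.20 and then -0.34. Under total count scaling the spermidine comparison gave 7 higher and 1 lower for the glucocorticoid list, 6 and 0 for the interleukin-6 list, 5 and 4 for heat shock (median -0.02) and 5 and 1 for NRF2 (median 0.14). With limma on log2(TPM + 1) heat shock gave 4 and 0 and NRF2 4 and 2. The excess of falls in the heat shock and NRF2 lists thus held with TMM and DESeq2 only, among these scalings. All genes were called at 72.4% in the first comparison and 58.1% in the second. In inhibition Zbtb16 and Hspb1 lay under the filter cutoff and passed it through other groups, so their calls rest on that selection. Hmox1 (0.096 CPM) and Srxn1 (0.39 CPM) of the NRF2 list and Osmr (0.40 CPM) of the interleukin-6 list lay under it in control. They entered the test through the groups where they are high, so their rises support nothing about those lists. Apart from these CPM levels, all values are edgeR log2 fold changes, and the 2 comparisons share the inhibition libraries.

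None of the tested genes around the metallothioneins was as low as Mt2 in inhibition against control. Only 177 of the 14461 tested genes were lower than Mt2, so this shows nothing particular to the locus. Within 250 kb of Mt1 or Mt2, 10 other genes were in the table and 9 were tested. In inhibition against control 2 were called higher (the pseudogene Rpl10-ps5, 1.80, and Herpud1, 0.09), 2 lower (Nup93, -0.76, and Nudt21, -0.27) and the 9 spanned -0.83 to 1.80. Bbs2, the nearest tested gene upstream of Mt2, was at 0.01 (SE 0.16), and Nup93, the nearest downstream of Mt1, encodes a nuclear pore protein. Rpl10-ps5 lies inside Nup93 and resembles its parent gene, so its counts are uncertain. It averaged 0.239 CPM in control, 0.836 in inhibition and 0.306 in spermidine libraries and so passed the filter only through the inhibition group, which leaves its calls and the value of 1.80 without support. In spermidine against inhibition 2 rose (Slc12a3 and Bbs2) and 4 fell (among them Nudt21, Ogfod1 and Rpl10-ps5), within -1.44 to 1.36. In spermidine against control 2 rose and 5 fell, within -1.49 to 0.54. The value of -1.49 is that of Gnao1, which averaged 0.815 CPM in control, 0.505 in inhibition and 0.284 in spermidine libraries. Its spermidine level lay under the filter cutoff of 0.489 CPM. Gnao1 entered the test through the groups where it is higher, so its call and the value of -1.49 are without support. Of all tested genes 72.4% were called in inhibition against control, 58.1% in spermidine against inhibition and 78.1% in spermidine against control.

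**Figure D5:**
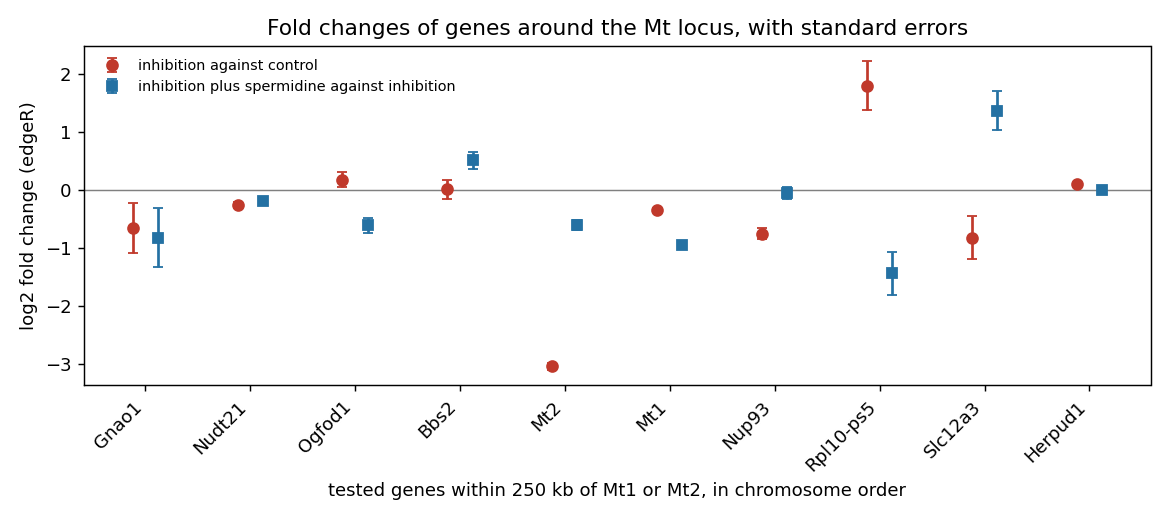
The edgeR log2 fold change of Mt1, Mt2 and tested genes within 250 kb of them, in chromosome order, in inhibition against control (circles) and spermidine against inhibition (squares), with bars of 1 standard error. Mt2 is the lowest point at -3.04, and its neighbours lie between -1.44 and 1.80 in the 2 comparisons.

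Genes whose levels followed each metallothionein most closely were ranked by the root mean square difference of centred log2 CPM over the 9 libraries, among 8237 named protein-coding genes with a mean of at least 5 CPM. For Mt1 the closest 5 included Tmsb4x (0.058), Tstd3 (0.095), Poldip2 (0.11) and Slc7a14 (0.12), beside 0.575 for the median gene. Tmsb4x, which encodes an actin-binding peptide, averaged 8334, 6544 and 3520 CPM in control, inhibition and spermidine libraries. For Mt2 they were Atp6v0e2 (0.092), Ccnb1ip1 (0.097), Atrip (0.13), H1f5 (0.13) and Lztr1 (0.13), beside 1.53 for the median gene. Atp6v0e2, a subunit of the vacuolar proton pump, averaged 284.1, 35.0 and 26.03 CPM. Neither metallothionein was among the 5 genes closest to the other. That follows from their unlike fold changes, for which the pair was singled out, and adds nothing to them.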

How the data were processed

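Paired reads of 9 libraries of sorted marrow cells were processed by the authors, and the submitters' processing notes name Trim Galore 0.6.2, STAR 2.6.1d, HTSeq 0.10.0, edgeR 3.24.3 and the build mm10, without assigning steps. The authors deposited estimated counts per gene, of which 48.2% are whole within 1e-06 (how fractions arose is not given in the sources used here), and TPM values, scaled within each library for length and depth. Total counts were 16096276 to 25360256. Estimated counts were rounded, scaled by TMM (factors 0.931 to 1.14) and tested for all genes in edgeR 4.0.16 (quasi-likelihood, 9 libraries in 1 fit, default filter with a cutoff near 0.489 CPM) under R 4.3.3, with Benjamini-Hochberg adjustment at 0.05. The standard error is the fold change divided by the root of the F statistic. The design had foreseen whole counts, and the same test was kept. On data simulated from these libraries the script was tested before use.

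The members and lists were chosen with earlier results of these data known, so no p is given for the 6 genes. Named genes are those 6, the zinc transporter and metallothionein families, up to 3 higher and 3 lower called genes with the largest fold per other list and comparison, genes within 250 kb of Mt1 or Mt2, the 5 genes closest in profile to each, and cell type markers. Gclc was named after its values were seen. Alternatives were DESeq2 1.42.0, limma 3.58.1 on log2(TPM + 1) or log2(TPM + 0.1), total count scaling, no filter, only 2 groups, a replicate block, leaving out each library, and leaving out 209 genes of other cell types (147 of them immunoglobulin genes). Coordinates are gene bounds of GENCODE M21, which matched 19437 listed genes. Promoter windows are from RefSeq (GRCm38.p6), where 5 of the 6 genes matched, and transcripts from GENCODE. Some genes that these rules name are not reported here.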

Additional observations from a re-analysis of the deposited data

How the results depend on the processing

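Mt1 and Mt2 kept direction and call in all 102 of their alternative fits; over all 6 genes 271 of 306 did, and 10 reversed. For inhibition against control, limma on log2(TPM + 1) and log2(TPM + 0.1) gave 0.127 and 0.406 for Slc30a1 (reversed) and 0.208 and 0.356 for Slc39a10 (no longer called). For spermidine against inhibition, no filter, DESeq2 and the limma fits gave 0.460, 0.462, 0.0775 and 0.253 for Slc30a1, and DESeq2 and the limma fits gave 0.636, 0.333 and 0.527 for Slc39a14, none called. Total count scaling and the limma fits turned Mtf1 to 0.173, 0.179 and 0.190 and Slc39a10 to 0.0861, 0.0777 and 0.123, and their calls over all genes were 7711 higher and 1793 lower, 7112 and 1256, and 7079 and 1226, against 4213 and 4183 with TMM. Total count scaling moved the median of all genes in that comparison to 0.288 from 0.027. For spermidine against control, no filter and DESeq2 gave 0.416 and 0.453 for Slc30a1 and limma on log2(TPM + 0.1) gave 0.480 for Slc39a10, none called; genes called lower were 2811 and 2751 in the limma fits against 5363, and total count scaling called 7705 higher and 3682 lower against 5930 and 5363. The log2 ratio of Mt1 to Mt2 by counts was 3.45, 6.15 and 5.78. The cause of these shifts was not tested.

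Leaving out each library in turn gave ranges for inhibition against control of -0.23 to 0.14 for Slc30a1 and 0.11 to 0.54 for Slc39a14. For spermidine against inhibition they were 0.35 to 0.60 for Slc30a1, -0.29 to -0.12 for Slc39a10 and 0.56 to 0.76 for Slc39a14, and for spermidine against control 0.27 to 0.64 for Slc30a1. Where this left 1 group with 2 libraries the pooled spread was used.

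Same-numbered libraries deviated together at correlations of -0.0365 to 0.0526 over 9 pairs, none over 0.1, so the numbers were not taken to pair libraries. With the replicate block Mt1 stood at -0.35 and Mt2 at -3.04 for inhibition against control, 4129 genes were called higher and 4132 lower for spermidine against inhibition, and no call of the 6 genes changed, while Slc39a11 was no longer called. Depth limits Slc30a1 (21 to 65 counts) and Slc39a14 (9 to 52).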
